A study of Homo sapiens with 17 samples.

Results

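Transcripts of 31 genes of cholesterol synthesis, sterol sensing, cholesterol transport and fatty acid synthesis were followed in IMR32 cells after NOTCH3IC was switched on. The genes were named by pathway, with earlier results of these data known. Of the 31 genes, 29 had a probe set annotated to that gene alone, out of 19775 such genes on the array. All 29 lay among the 13675 genes whose mean log2 intensity over all arrays passed the filter on dim genes. FDFT1 and CYP51A1 were not analysed here, the first because the annotation used here assigned it no probe set and the second because its probe sets were annotated to a neighbouring gene as well.

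IMR32 is an established line from a human neuroblastoma in which MYCN is amplified. Clones c8 and c6 of this line both carried a doxycycline-inducible construct for NOTCH3IC, the intracellular and active piece of the receptor NOTCH3, and both received doxycycline. Clone c8 gave 8 arrays at times 0, 4, 8, 12, 24, 48, 72 and 96, and clone c6 gave 9 arrays at the same times and at time 120, with 1 array per clone and time and with no unit of time in the labels. Times 48, 72 and 96 are called late, times 4, 8 and 12 early, and time 0 the start. The 17 arrays held no culture kept without doxycycline after time 0 and no clone without the construct, so time in culture, doxycycline and NOTCH3IC cannot be told apart. The labels do not say whether the time points were separate cultures, and 2 clones limit what can be said of the line, so p-values measure only the spread between these arrays.

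NOTCH3 intensity was 218 at time 0 and 780 to 1028 at times 12 and 24 in clone c8, and 94.6 at time 0 and 205 to 446 at the same times in clone c6. All 7 genes taken as a check of induction (NOTCH3, HES1, HES4, HEY1, HEY2, NRARP and JAG1) rose late against start, and 6 of 7 rose early against start. Of 9 neuroblast genes, MYCN (4075 to 5493), GATA3 (3045 to 4290), CHGA (733 to 2082), PHOX2A (583 to 1598) and ISL1 (163 to 386) were bright on all 17 arrays, and HAND2 (62.7 to 129) and CHGB (50.7 to 108) were dimmer. DBH (3.9 to 245) and STMN2 (0.8 to 50.9) were near background on some arrays. PTPRC, CDH5, EPCAM and ALB, which mark blood, endothelial, epithelial and liver cells, stayed at or below 16. The endothelial gene PECAM1 ranged over 17.5 to 39.8, above that limit on every array, and the mesenchymal gene PDGFRA over 392 to 879.7. Intensities are arbitrary units scaled by the authors to the same trimmed mean on every array, and they compare 1 gene between arrays but not different genes. In such bulk RNA, a smaller share of cells with a transcript and less transcript per cell cannot be told apart.

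Cells build cholesterol from acetyl-CoA through mevalonate, the isoprenoid diphosphates, squalene and lanosterol. The SREBP transcription factors, made from SREBF1 and SREBF2, are held in the endoplasmic reticulum by SCAP and INSIG proteins while sterols are plentiful; when sterols run low they travel to the nucleus and switch on the enzymes of this route. Oxidised sterols activate the LXR receptors, which raise SREBF1 and the efflux pumps ABCA1 and ABCG1. The intracellular domain of NOTCH3 acts through the DNA-binding protein RBPJ and induces repressors of the HES and HEY families.

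The promoters of 26 of the 31 genes were listed in the RefSeq table (GRCh38.p14), as 35 windows of 300 bases around annotated starts. The NF-Y box CCAAT, which helps SREBPs to act, was present on either strand in 19 of 26 genes (73.1%), against 39.7% of 27305 genes with a window. The palindromic E-box CACGTG, bound by HES and HEY repressors, was present in 5 of 26 (19.2%: ABCA1, INSIG1, LSS, SC5D and SCAP), against 8.77% of all genes. The letters TGGGAA of the RBPJ site were present on either strand in 3 of 26 genes (11.5%), against 28.1%, and the sterol regulatory element core TCACNCCAC in 1 of 26 (3.8%), against 1.39%. The motifs do not overlap each other in the stretches printed here. A match describes letters in a window and shows no binding.

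These 6 stretches are shown because the results below turn on these genes: HMGCS1 (chr5:43313413-43313662, minus strand), FDPS (chr1:155308616-155308865, plus strand) and MSMO1 (chr4:165327419-165327668, plus strand) were lower late than early in clone c6, SC5D (chr11:121292521-121292770, plus strand) rose, SCD (chr10:100346983-100347232, plus strand) fell, and SREBF2 (chr22:41832855-41833104, plus strand) holds the sterol element. Each stretch is the 250 bases before the outermost listed start, 5′ to 3′ on the gene's strand, and capitals mark the letters of these motifs or of their reverse complements. The capitals are NF-Y boxes, except the first run in FDPS (an RBPJ site), the first run in SC5D (the E-box) and the first run in SREBF2 (the sterol element).
HMGCS1: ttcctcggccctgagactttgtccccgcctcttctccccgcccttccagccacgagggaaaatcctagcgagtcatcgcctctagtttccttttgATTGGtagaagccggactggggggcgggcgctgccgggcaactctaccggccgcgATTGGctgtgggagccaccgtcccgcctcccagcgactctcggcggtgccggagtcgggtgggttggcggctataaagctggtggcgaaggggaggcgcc
FDPS: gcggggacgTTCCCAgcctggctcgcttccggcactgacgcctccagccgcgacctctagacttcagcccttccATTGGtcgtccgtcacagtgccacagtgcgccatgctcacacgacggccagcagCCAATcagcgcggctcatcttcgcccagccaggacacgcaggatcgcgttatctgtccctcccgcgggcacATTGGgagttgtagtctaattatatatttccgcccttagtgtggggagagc
MSMO1: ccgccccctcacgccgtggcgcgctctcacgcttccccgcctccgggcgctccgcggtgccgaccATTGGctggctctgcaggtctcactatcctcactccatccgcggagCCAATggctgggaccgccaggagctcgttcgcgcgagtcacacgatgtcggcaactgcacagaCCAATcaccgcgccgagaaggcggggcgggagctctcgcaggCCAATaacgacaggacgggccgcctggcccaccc
SC5D: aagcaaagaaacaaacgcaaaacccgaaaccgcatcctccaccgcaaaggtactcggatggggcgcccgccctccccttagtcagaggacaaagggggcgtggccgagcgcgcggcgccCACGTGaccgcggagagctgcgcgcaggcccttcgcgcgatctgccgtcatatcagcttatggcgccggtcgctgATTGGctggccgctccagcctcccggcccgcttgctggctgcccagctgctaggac
SCD: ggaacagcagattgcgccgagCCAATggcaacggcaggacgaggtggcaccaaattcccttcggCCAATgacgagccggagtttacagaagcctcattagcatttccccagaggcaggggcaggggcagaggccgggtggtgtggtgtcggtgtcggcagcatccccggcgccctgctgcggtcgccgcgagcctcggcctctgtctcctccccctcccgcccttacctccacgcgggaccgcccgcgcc
SREBF2: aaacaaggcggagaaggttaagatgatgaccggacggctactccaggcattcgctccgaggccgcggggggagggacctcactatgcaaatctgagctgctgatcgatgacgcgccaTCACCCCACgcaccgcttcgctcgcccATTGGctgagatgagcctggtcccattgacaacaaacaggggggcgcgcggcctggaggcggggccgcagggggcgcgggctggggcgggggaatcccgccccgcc

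SC5D rose and SCD and SREBF1 fell at the late times, while no other enzyme of cholesterol synthesis passed late against start over both clones. The pooled estimates cover 2 clones with unlike counts above time 0 on single arrays. Of the 16 enzymes of the mevalonate and squalene steps, 4, 4 and 5 were above time 0 at times 48, 72 and 96 in clone c6. Of all 13675 genes tested, 6980, 7173 and 7150 were above it on these arrays. In clone c8 the counts were 6, 14 and 11 enzymes, and 7197, 7272 and 7132 of all genes. The clone differences against time 0 were not tested. Late against start, 3 of 29 genes passed the test, 1 higher and 2 lower, beside 6.94% of the 13675 genes tested (limma, Benjamini-Hochberg adjusted p below 0.05). The median log2 change was -0.06 over the 29 genes and 0.02 over all genes. Early against start, 1 of 29 passed (NPC2, higher), beside 2.01% of all genes, and 20 of 29 estimates were above 0, with a median of 0.12 beside 0.03 over all genes. Late against early, 3 of 29 passed (SC5D higher, SCD and NPC1 lower), beside 5.18% of all genes. In that comparison 12 of 29 had an unadjusted limma p below 0.05, beside 16% of all genes. Its estimates were below 0 for 22 of 29 genes, with a median of -0.21 beside -0.01 over all genes. A test of any difference from time 0 at the later times found 2 of 29 (SC5D and SCD), beside 6.61% of all genes. Of the 26 genes that missed the threshold late against start, all had a 95% interval inside a 2-fold change of intensity + 16 in either direction. The added 16 makes changes of dim genes look smaller. For MVD, ABCA1 and ABCG1 these intervals therefore do not bound the change in intensity itself.

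**Figure D1:**
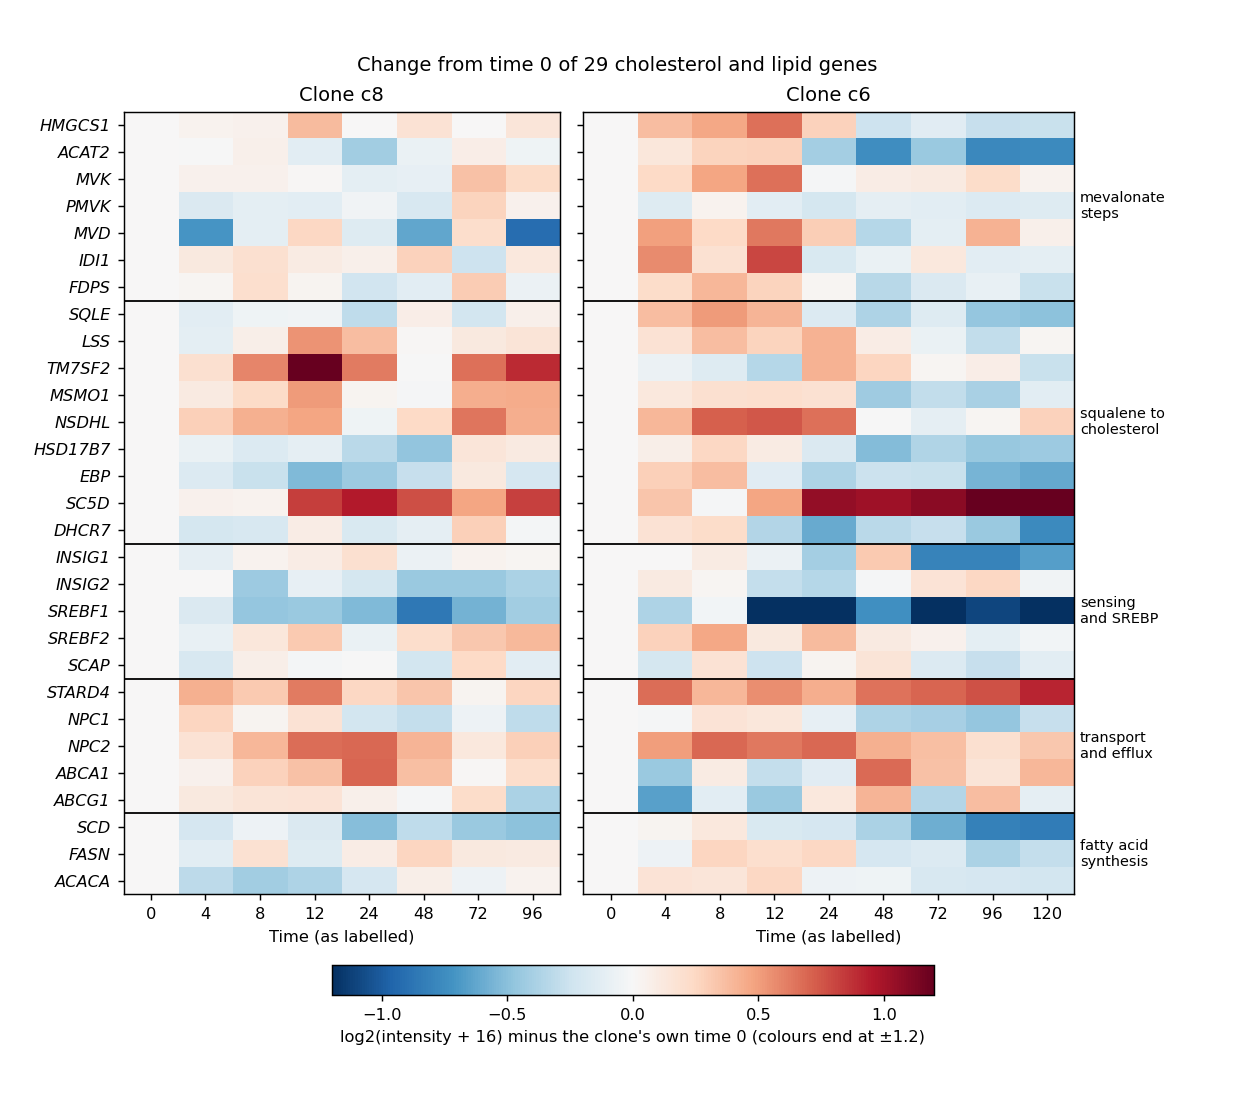
Change of 29 genes from the clone's own time 0, as log2(intensity + 16), with genes down the page by role and arrays across by time, clone c8 on the left and clone c6 on the right (1 array per column). SC5D turned red and SREBF1 blue at the later times in both clones, and in clone c6 12 to 14 of the 16 enzymes of the mevalonate and squalene steps were above time 0 at times 4 to 12 and 11 or 12 below it from time 48.

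The mevalonate steps turn acetyl-CoA into farnesyl diphosphate. With the probe sets used, none of the 7 genes passed late against start or early against start in limma. The count at an unadjusted p below 0.05 was 0 of 7 in either comparison. Over all genes it was 18.3% late against start and 14.3% early against start. Late against early, 0 of 7 passed in limma, and 4 of 7 had an unadjusted p below 0.05, beside 16% of all genes. HMGCS1, which makes HMG-CoA, had intensities of 241, 249, 251, 317, 241, 273, 242 and 267 in clone c8 and 347, 453, 483, 558, 423, 289, 315, 283 and 285 in clone c6, in order of time. In clone c6 its late arrays all lay below its early arrays, with means of 296 ± 16.7 late and 498 ± 54.4 early (SD, n = 3 arrays each). The means in clone c8 were 260.5 ± 16.7 late and 272 ± 39.1 early, and the arrays overlapped. Over both clones, a dimmer HMGCS1 probe set gave log2 changes of 0.14 early and -0.41 late against start (limma unadjusted p = 0.39 and 0.021, adjusted p = 0.80 and 0.19). Its clone difference from early to late, given below, was small, so the contrast between the clones depends on the probe set. ACAT2, the cytosolic thiolase that joins acetyl-CoA units before HMGCS1 acts, measured 721, 718, 751, 661, 535, 682, 765 and 696 in clone c8 and 897, 986, 1085, 1089.9, 672, 530.0, 653, 518 and 521 in clone c6. It too was lower in every late than in every early array of clone c6 and overlapped in clone c8.

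IDI1, the isomerase of isopentenyl diphosphate, measured 903, 984, 1036, 967, 945, 1098, 757 and 987 in clone c8 and 1067, 1586, 1211, 1875, 936, 1010.3, 1169, 978 and 982 in clone c6. Its probe set is of a type that can also detect near-identical transcripts, so its level is uncertain to that extent. Its highest arrays were times 4 and 12 of clone c6. FDPS, which makes farnesyl diphosphate, measured 2679.9, 2721, 3091, 2738, 2279, 2452, 3319 and 2543 in clone c8 and 2723, 3173, 3593, 3289, 2759.7, 2166, 2407, 2558 and 2263 in clone c6, with no overlap between late and early arrays in clone c6 and overlap in clone c8. The kinases MVK (119 to 200.1) and PMVK (615 to 923) and the dim decarboxylase MVD (1.3 to 22.8) completed the steps and passed no comparison.

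From squalene onwards, SC5D was the 1 gene of 9 that changed late against start. SC5D, lathosterol oxidase, which adds a ring double bond late in the route, measured 229.5, 239, 236, 421, 459, 405, 324 and 418 in clone c8 and 261, 333, 259, 369.7, 559, 544, 572, 661 and 633 in clone c6. All late arrays of each clone lay above its own time 0, and its late arrays were clear of its early arrays in clone c6 but not in clone c8. Late against start its log2 change was 0.91 (SE 0.15, a 1.88-fold rise, limma adjusted p = 0.0012), and late against early 0.62 (SE 0.15, adjusted p = 0.017). A dimmer probe set of SC5D, with a mean intensity of 39.2, gave log2 changes of 0.02 and 0.10 in the same comparisons, and with probe sets averaged neither call remained (adjusted p = 0.11 and 0.22). Leaving out time 0 of clone c6 ended the call late against start (adjusted p = 0.064), and leaving out time 8 of clone c8 or time 96 of clone c6 ended that late against early.

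SQLE, squalene epoxidase, measured 1237, 1131, 1194, 1200.0, 1001, 1306, 1059 and 1288 in clone c8 and 1651, 2146, 2357, 2196, 1468, 1274, 1478, 1196 and 1171 in clone c6. Clone c6 stood higher at times 4 to 12 than at any other time, and clone c8 stayed between 1001 and 1306 throughout. Late against start its log2 change was -0.18 over both clones. Other probe sets of SQLE gave -0.38, -0.33 and 0.17 (limma unadjusted p = 0.048, 0.033 and 0.28, adjusted p = 0.30, 0.24 and 0.66). LSS, lanosterol synthase, measured 447, 412, 470.2, 655, 584, 451, 486 and 501 in clone c8 and 579, 655, 754, 699, 776, 616, 546, 470.3 and 588 in clone c6, with its highest array at time 12 in clone c8 and at time 24 in clone c6. MSMO1, the oxidase that starts the later of the sterol demethylations, after that by CYP51A1, measured 809.8, 876, 952, 1163, 829, 799.5, 1104 and 1109 in clone c8 and 1078, 1176, 1235, 1241, 1225, 797, 873, 819 and 986 in clone c6. Its late and early arrays were apart in clone c6 only: clone c8 was high at times 12, 72 and 96.

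NSDHL, which acts after MSMO1 in the same demethylation, measured 203, 250.0, 278, 288, 195, 242, 326 and 281 in clone c8 and 206, 276, 349, 355, 335, 205, 191, 209 and 252 in clone c6. Both clones were above their own time 0 in all early arrays, and clone c6 was back near it at times 48 to 96. HSD17B7, the ketone reductase of that demethylation, measured 549, 519.5, 489, 507, 436, 391, 609 and 591 in clone c8 and 677, 714, 807, 727, 598, 466, 524, 491 and 496 in clone c6, and its probe set can also detect near-identical transcripts. Its late arrays were below its early arrays in clone c6, while in clone c8 time 48 was the lowest of all and times 72 and 96 the highest. The sterol reductase TM7SF2 (22.2 to 95.8), the isomerase EBP (379 to 764) and DHCR7 (185 to 381), whose product is cholesterol, passed no comparison. The highest TM7SF2 value was time 12 of clone c8. Late against start EBP changed by -0.24, and other probe sets of EBP gave -0.34 and -0.21 (limma unadjusted p = 0.035 and 0.19, adjusted p = 0.25 and 0.56).

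**Figure D2:**
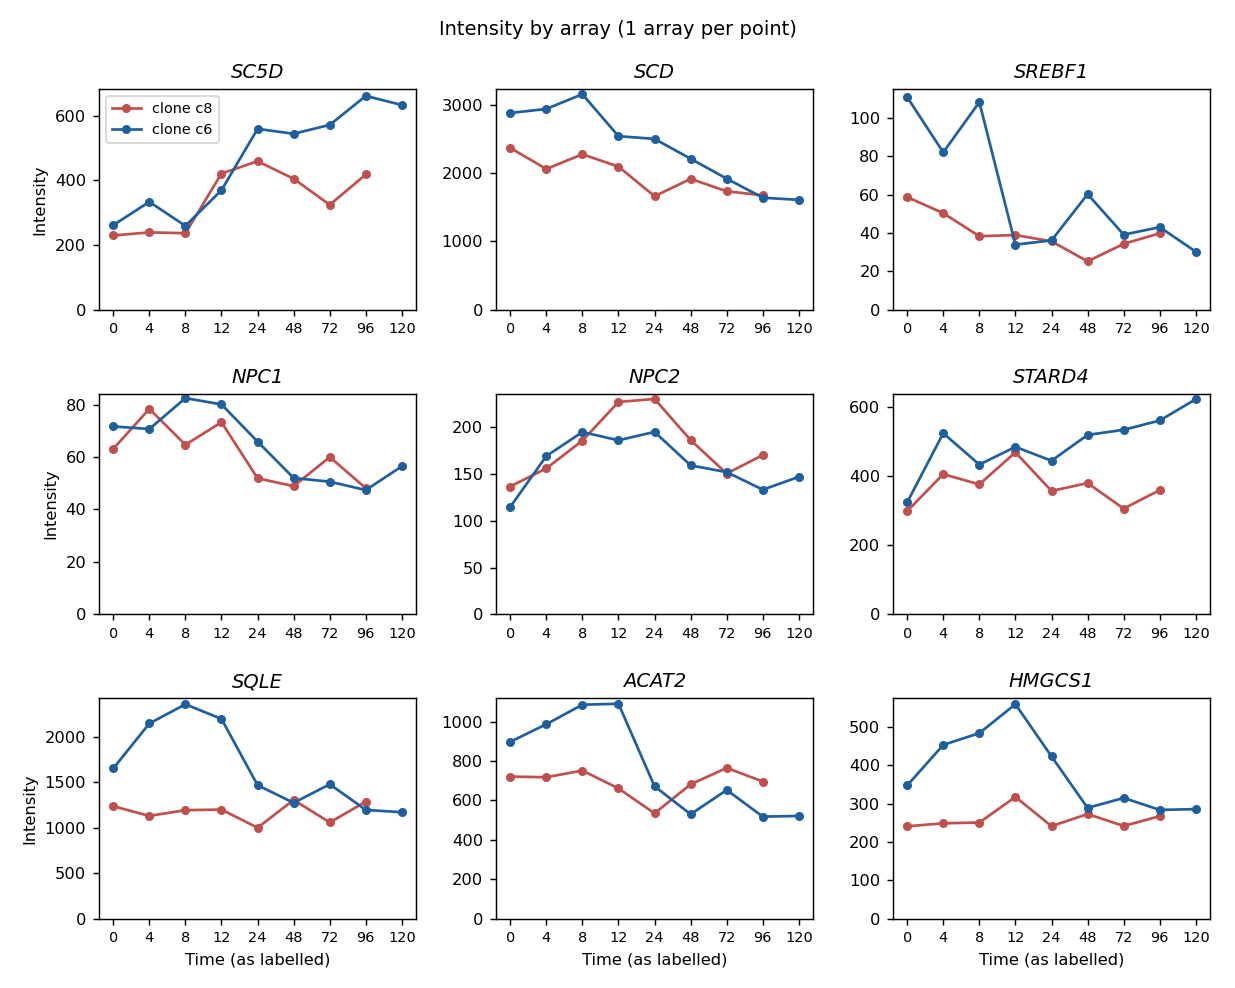
Intensity (arbitrary units, linear axis from 0) of 9 genes against time as labelled, evenly spaced, with 1 array per point, clone c8 in red and clone c6 in blue. SC5D climbed and SCD declined in both clones, whereas SQLE, ACAT2 and HMGCS1 were high at times 4 to 12 in clone c6 and varied less in clone c8. For HMGCS1 this contrast depends on the probe set.

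Among the genes that sense sterols, SREBF1 fell late against start and the other 4 passed neither comparison with the start. SREBF1, the source of the SREBP form that favours fatty acid genes, measured 58.7, 50.3, 38.3, 38.9, 35.6, 25.2, 34.3 and 39.8 in clone c8 and 111, 82, 108, 33.9, 36.1, 60.2, 39.1, 43 and 30.2 in clone c6. All 6 late arrays lay below their clone's own time 0. The log2 change late against start was -0.82 (SE 0.23, limma adjusted p = 0.045); early against start it was -0.47 (SE 0.23, adjusted p = 0.38). The call was lost in 17 of 31 alternatives, among them a pseudocount of 1, no filter on dim genes, no intensity trend, and the loss of 1 array at time 0, 4, 48 or 72 of clone c8 or at time 0, 4, 72 or 96 of clone c6. Without time 0 it fell furthest from the threshold (adjusted p = 0.14 without that of clone c8 and 0.53 without that of clone c6).

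SREBF2, the source of the SREBP form that favours cholesterol genes, measured 148, 138, 164, 188, 139, 173, 188 and 198 in clone c8 and 159, 196, 226, 174, 213, 174, 166, 146 and 155 in clone c6, with a log2 change of 0.16 (95% interval -0.21 to 0.53) late against start. INSIG1, a retention protein whose own gene is an SREBP target, measured 275, 254, 283, 293, 315, 261, 284 and 279 in clone c8 and 314, 315, 337, 297, 232, 394, 173, 174 and 192 in clone c6. It was low at times 72, 96 and 120 of clone c6 and high at time 48 of that clone, and clone c8 stayed between 254 and 315. INSIG2, its relative, measured 94.2, 94.2, 65.3, 86.6, 79.5, 65, 65 and 68.5 in clone c8 and 102, 111, 104, 80.6, 76.9, 101, 116, 124 and 98.5 in clone c6, and the late arrays were all below time 0 in clone c8 but not in clone c6. The escort protein SCAP ranged over 252 to 398.

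The transport genes included the 1 early call. NPC2, which hands cholesterol over inside the lysosome, measured 137, 156, 186, 227, 231, 187, 151 and 171 in clone c8 and 115, 169, 195, 186, 195, 159, 152, 133 and 147 in clone c6. All 6 early arrays lay above their clone's own time 0, with a log2 change of 0.51 (SE 0.12, a 1.43-fold rise, limma adjusted p = 0.048), and late against start the change was 0.30 (adjusted p = 0.20). The early call was lost in 21 of 31 alternatives, among them leaving out any 1 array of times 0, 4, 8, 48 or 96 or time 12 of clone c8. STARD4, a cytosolic sterol carrier, measured 299, 406, 376, 469, 357, 379.7, 306 and 359.5 in clone c8 and 324, 524, 433, 485, 444, 519, 534, 561 and 623 in clone c6. Every array after time 0 was above its clone's own time 0, with log2 changes of 0.50 (adjusted p = 0.079) early against start and 0.46 (adjusted p = 0.058) late against start, neither past the threshold.

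NPC1, the lysosomal membrane partner of NPC2, measured 63.1, 78.4, 64.7, 73.3, 51.9, 48.9, 60 and 48.1 in clone c8 and 71.7, 70.7, 82.5, 80.1, 65.9, 52, 50.6, 47.4 and 56.5 in clone c6. Late arrays were below early arrays without overlap in both clones, and the log2 change late against early was -0.44 (SE 0.10, limma adjusted p = 0.0099). The call was lost when probe sets were averaged (-0.21, adjusted p = 0.20), in a dimmer probe set (-0.45, adjusted p = 0.15) and in each clone alone (adjusted p = 0.42 in clone c8 and 0.083 in clone c6). The efflux pump ABCA1 was dim, with 16.3, 17.5, 23.1, 25.3, 36.5, 25.5, 16.7 and 21.4 in clone c8 and 16.5, 7.9, 18.7, 10.7, 13.6, 36.2, 25.4, 20.2 and 26.9 in clone c6. Its late arrays were above its early arrays in clone c6 and overlapped them in clone c8, and its log2 change late against start was 0.30 (95% interval -0.19 to 0.79). ABCG1, its partner in efflux, was dim as well and measured 25.2, 28.7, 30, 30.2, 27.1, 24.8, 31.9 and 15.7 in clone c8 and 13.4, 2.7, 11, 5.6, 16.1, 23.1, 7, 22.1 and 11.3 in clone c6.

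Of the 3 fatty acid genes, SCD fell late. SCD, the desaturase that makes oleate from stearate, measured 2368, 2059.6, 2274, 2094, 1660.4, 1915, 1733 and 1674 in clone c8 and 2879, 2938, 3154, 2539.9, 2499.9, 2209, 1918, 1639 and 1607 in clone c6. Late arrays lay below early arrays and below time 0 in both clones without overlap. The log2 change was -0.50 (SE 0.11, limma adjusted p = 0.0088) late against start and -0.43 (SE 0.09, adjusted p = 0.0068) late against early. In 1 clone alone, late against early gave -0.27 in clone c8 (limma adjusted p = 0.33) and -0.58 in clone c6 (adjusted p = 0.017). The call late against start was lost without the clone term. It was also lost in each clone alone, where the start is a single array. A second bright probe set of SCD gave -0.66 (adjusted p = 0.019) and -0.57 (adjusted p = 0.012), while the other 2 probe sets, which are dimmer, missed the threshold in both comparisons, with -0.42 and -0.63 (adjusted p = 0.20 and 0.063) late against start and -0.39 and -0.49 (adjusted p = 0.20 and 0.15) late against early. Leaving out time 0 of either clone ended the call late against start, with adjusted p = 0.15 without that of clone c8 and 0.12 without that of clone c6, and log2 changes of -0.49 and -0.52.

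FASN, fatty acid synthase, measured 484, 442, 552, 432, 516, 579.8, 525 and 521 in clone c8 and 499, 478, 600.2, 578, 597, 431, 444, 381 and 408 in clone c6. Its late arrays were above time 0 in clone c8 and below it in clone c6, and the joint log2 change was -0.05 (95% interval -0.37 to 0.28). ACACA, acetyl-CoA carboxylase, which supplies FASN with malonyl-CoA, measured 347, 276, 257, 265, 299.8, 366, 332 and 357 in clone c8 and 400.1, 449, 446, 479, 384, 385, 349, 346 and 340.1 in clone c6. Late arrays were above early arrays in clone c8 and below them in clone c6, without overlap in either.

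Taken clone by clone, the step from early to late looked different for the enzymes of the route. In clone c6 alone, 9 of 29 genes passed late against early, 1 higher and 8 lower, beside 4.84% of all genes (limma, 3 late against 3 early arrays). The 8 lower genes were ACAT2 (log2 change -0.88), SQLE (-0.76), HMGCS1 (-0.72), NSDHL (-0.65), HSD17B7 (-0.59), SCD (-0.58), MSMO1 (-0.54) and FDPS (-0.49), with adjusted p between 0.00092 and 0.017; SC5D was higher (0.86, adjusted p = 0.0043). In clone c8 alone, 0 of 29 passed in limma, beside 1.31% of all genes, and 3 of 29 (10.3%) had an unadjusted p below 0.05, beside 10.1% of all genes. Leaving out any 1 of the 6 arrays gave 0 or 1 genes in clone c8 (SC5D, without time 12) and 6 to 12 in clone c6, with ACAT2, HMGCS1, HSD17B7, MSMO1 and SQLE lower and SC5D higher each time; without time 72 the count was 6. Neighbouring times stand in as replicates within a clone, so these tests measure the spread between arrays of 1 clone. Other probe sets were not fitted in each clone alone.

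Every late array lay below every early array for 2 of 29 genes in clone c8 (NPC1 and SCD), beside 7.25% of all genes, and for 17 of 29 in clone c6, beside 11.8%. The reverse order held for 1 of 29 in clone c8 (ACACA), beside 8.58%, and for 3 of 29 in clone c6 (TM7SF2, SC5D and ABCA1), beside 11.5%. The highest array of a clone was an early one for 5 of the 16 enzymes of cholesterol synthesis in clone c8, where 36.7% of all genes had theirs, and for 13 of the 16 in clone c6, beside 39.8%. In clone c8, 10 of the 16 had their highest array among the late ones, beside 40.2% of all genes.

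**Figure D3:**
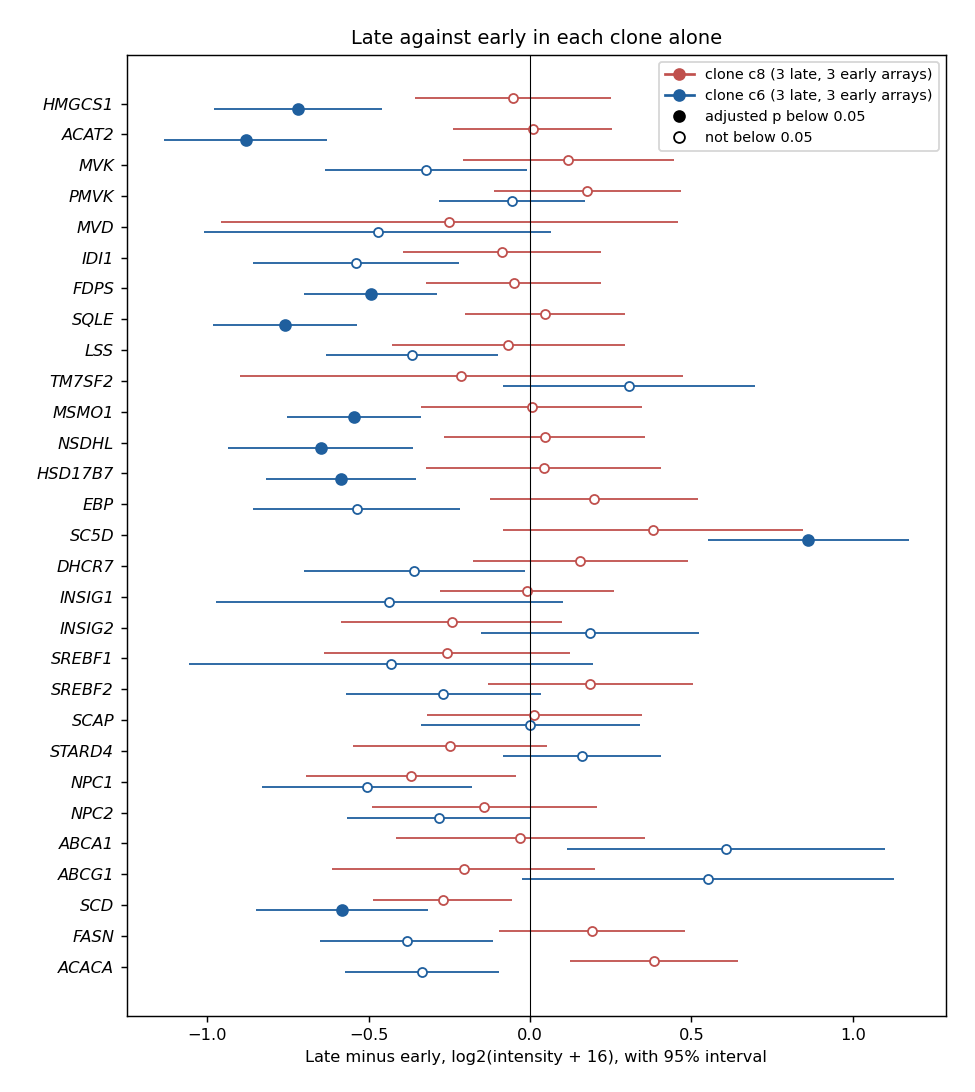
Late minus early on the log2(intensity + 16) scale in each clone alone (horizontal axis) for 29 genes (down the page), as estimates with 95% intervals from 3 late and 3 early arrays, clone c8 in red above clone c6 in blue. Filled points passed an adjusted p of 0.05: 9 in clone c6, of which SC5D is the 1 to the right of 0, and 0 in clone c8.

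The difference between the clones in this step, late minus early in clone c8 minus the same in clone c6, was tested by the interaction term. None of the 29 genes passed, beside 0 of 13675 genes (0%), and the smallest limma adjusted p was 0.22 (ACAT2, 0.89 with a 95% interval of 0.56 to 1.22, and SQLE, 0.81 with 0.49 to 1.12). At an unadjusted p below 0.05 there were 16 of 29, beside 8.72% of all genes, and 23 of 29 differences were above 0, with a median of 0.43 beside 0.01 over all genes. All 7 mevalonate genes and all 3 fatty acid genes were above 0. Of the 9 genes from squalene onwards 7 were above 0, and TM7SF2 (-0.52) and SC5D (-0.48) were below. Among the 5 sterol sensing genes INSIG2 (-0.43) was below 0. Of the transport genes, STARD4 (-0.41), ABCA1 (-0.64) and ABCG1 (-0.76) were below 0, and NPC1 and NPC2 (0.14 each) were above. For 13 of the 29 genes the 95% interval reached past a 2-fold difference, so the arrays bound these differences loosely. A dimmer HMGCS1 probe set gave 0.02 where the one used gave 0.67.

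Other genes were read over the same step. The 18 cell division genes set beside the list had a median clone difference of 0.44, with 16 of 18 above 0, and late against early in 1 clone they had a median of 0.17 (0 of 18 passed, 1 at an unadjusted p below 0.05) in clone c8 and -0.19 (6 lower) in clone c6. Their median change from time 0 was lowest at time 12 in clone c8 (-0.76) and at time 24 in clone c6 (-0.99), while that of the 16 cholesterol enzymes at those arrays was 0.09 and 0.00. The enzymes' median was highest at time 72 in clone c8 (0.24) and at time 12 in clone c6 (0.27). The part of cell division in the clone difference was not tested.

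**Figure D4:**
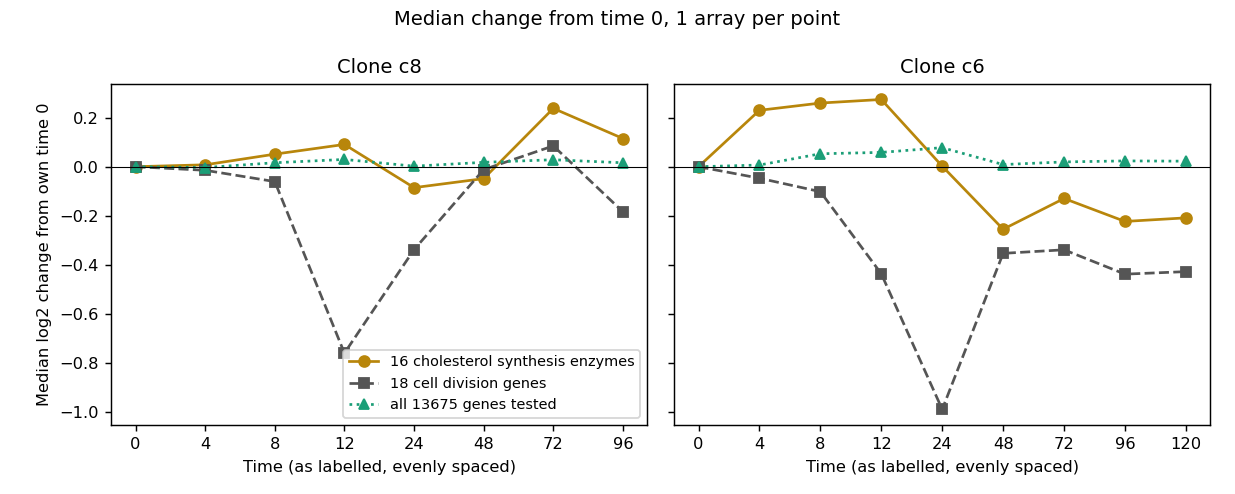
Median log2 change from the clone's own time 0 (vertical axis) against time as labelled, evenly spaced (horizontal axis), for 16 cholesterol synthesis enzymes, 18 cell division genes and all 13675 genes tested, with clone c8 on the left, clone c6 on the right and 1 array per point. The enzymes stood at 0.23 to 0.27 at times 4 to 12 and at -0.25 to -0.13 from time 48 in clone c6, and the cell division genes dipped at time 12 in clone c8 and at time 24 in clone c6.

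The level averaged over the 8 shared times differed between the clones for 11 of 29 genes, beside 21.7% of all genes. Of the 11, 1 was higher and 10 lower in clone c8 than in clone c6 (limma adjusted p below 0.05, time as a term). The lower ones were HMGCS1 (log2 difference -0.54, SE 0.10), SQLE (-0.51), SREBF1 (-0.44), ACACA and STARD4 (-0.36 each), INSIG2, SC5D and LSS (-0.34 each), IDI1 (-0.32) and SCD (-0.31), and the higher one was ABCG1 (0.61, SE 0.16). All 11 had adjusted p between 0.0017 and 0.042. For HMGCS1 a dimmer probe set gave the opposite direction (0.35, adjusted p = 0.020), so its level difference depends on the probe set, and a second probe set of LSS and 1 of IDI1 gave values near 0 (0.02 each). ABCG1 missed the threshold in both of its other probe sets (0.0092 and 0.31, adjusted p = 0.97 and 0.059). Calls were also missed in 2 of the other SCD probe sets (-0.10 and -0.03), in that of SC5D (-0.05), in 1 of SQLE (-0.19) and in that of ACACA (-0.14). The calls of IDI1, INSIG2, SREBF1, ACACA and SC5D were lost when single times were left out, and the count then ranged over 7 to 11. At time 0 itself, SQLE measured 1237 in clone c8 and 1651 in clone c6, and SCD 2368 in clone c8 and 2879 in clone c6. An averaged difference need not hold at each time. Early means of SQLE were 1175 in clone c8 and 2233 in clone c6, and late means 1218 and 1316. Those of ACACA were 266 and 458 early, and 352 and 360 late. For SC5D the gap was wider late, with 299 and 321 early, and 382 and 592 late.

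**Figure D5:**
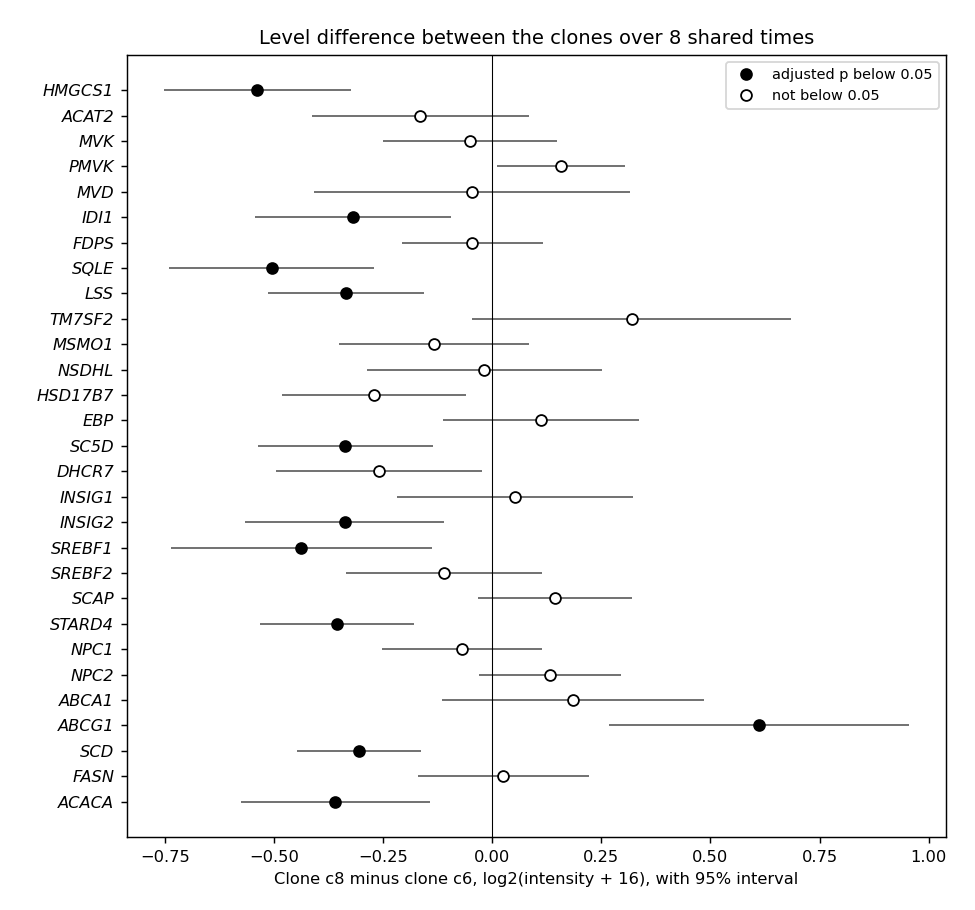
Difference in level between the clones, clone c8 minus clone c6 on the log2(intensity + 16) scale (horizontal axis), for 29 genes (down the page), as estimates with 95% intervals over 8 shared times. Filled points passed an adjusted p of 0.05: 10 left of 0, led by HMGCS1 and SQLE, and ABCG1 right of 0.

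Further genes of these pathways were read from lists kept apart from the 31. Their counts past the threshold stand beside 6.94% of all genes late against start and 2.01% early against start. At an unadjusted p below 0.05 the shares of all genes were 18.3% and 14.3%. Of 17 tested sterol and isoprenoid enzymes, 0 passed late against start or early against start in limma, with 1 at an unadjusted p below 0.05 in each; FAXDC2 (0.61), PDSS1 (-0.29), FNTB (0.31) and LBR (-0.21) had the smallest p. Of 17 genes of SREBP processing and SREBP targets, 1 fell late against start in limma, with 3 at an unadjusted p below 0.05. It was LPIN1, a phosphatidate phosphatase and SREBP target (log2 change -0.56, SE 0.11, adjusted p = 0.0041). TMEM41B (-0.38), UBE2G2 (-0.28) and MARCHF6 (-0.20) did not pass. Early against start 0 of 17 passed in limma, with 3 at an unadjusted p below 0.05. Of 23 genes of LXR, efflux, uptake and storage, 0 passed late against start in limma, with 4 at an unadjusted p below 0.05, and 1 rose early: MYLIP, the LXR-induced ubiquitin ligase of lipoprotein receptors (0.94, SE 0.21, adjusted p = 0.032; late against start 0.60, adjusted p = 0.12). LRP8, an apolipoprotein receptor (-0.58), LIPA, the lysosomal acid lipase (0.27), and OSBP, an oxysterol-binding protein (0.26), did not pass late against start.

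Of 27 further genes of fatty acid and glycerolipid synthesis, 2 rose late against start in limma, beside 6.94% of all genes. At an unadjusted p below 0.05 there were 8 of 27, beside 18.3% of all genes. Early against start 0 passed in limma, with 3 at an unadjusted p below 0.05. SCD5, a desaturase related to SCD, rose by a log2 change of 0.75 (SE 0.15, adjusted p = 0.0061), in the direction opposite to SCD. DGAT1, which makes triglyceride, rose by 0.54 (SE 0.15, adjusted p = 0.038). ME1 (-0.49), which supplies NADPH, and ACLY (-0.28), which supplies cytosolic acetyl-CoA, did not pass. Among the 18 cell division genes, E2F1 (-0.67) and CCNE2 (-0.59) fell late against start, and E2F1, CCNE2 and CDC6 fell early against start; CDC6 (-0.50) and PCNA (-0.35) did not pass late.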

How the data were processed

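RNA of 2 IMR32 clones was measured on 17 1-colour expression arrays. The deposited values are intensities per probe set on a linear scale; per the submitters' processing notes the authors used MAS5 and GCOS, and from the values each array was scaled to the same 2% trimmed mean (100.01). Array medians ranged over 14.6 to 19.3, and correlations between arrays over 0.955 to 0.990. Precision rests on the array number. Of 54675 probe sets, 41097 had 1 gene symbol, 1801 several and 11777 none in the platform annotation; 41043 of the 41097 were found by gene identifier in RefSeq (GRCh38.p14), and no symbol changed. No genome build of the probe annotation was used; coordinates are those of the RefSeq promoter table.

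Intensities were taken as log2(value + 16), which makes changes of dim genes look smaller. Each gene took its probe set of highest mean and stayed in the fits if this mean was at or above 4.68, the 40th percentile over probe sets, which left 13675 genes. Tests used limma 3.58.1 in R 4.3.3 with an intensity trend, Benjamini-Hochberg adjustment over all genes and a threshold of 0.05. The comparisons with time 0 came from 1 fit over all 17 arrays with terms for time and clone (7 residual degrees of freedom). Late against early and the interaction of clone and phase used 12 arrays (9 and 8 degrees of freedom). The level difference used 16 arrays of shared times (7 degrees of freedom).

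The labels pair arrays by clone, and across genes the differences between the clones at 8 shared times had pairwise correlations of 0.13 to 0.49, so a clone term was kept. No 2 arrays had over 1.42% of values equal. The 31 genes and the further lists were chosen with earlier results of these data known. By a fixed rule, values by array are given for genes past a threshold and for HMGCS1, IDI1, INSIG1, SREBF1, SREBF2, SCD, FASN and ABCA1, and up to 4 genes of smallest p late against start are named per list; ACAT2, FDPS, MSMO1, NSDHL, HSD17B7 and PAQR3 were named after their values were seen. The fits were also run on simulated arrays with independent errors and no clone effect. Such arrays cannot test the use of neighbouring times as replicates or a difference between the clones. Other settings tried were no filter or one at the 60th percentile, median centring or quantile normalization, pseudocounts of 64 and 1, averaged or other probe sets, phase means, fits without the intensity trend or the clone term, each clone by itself, and the loss of each array.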

Additional observations from a re-analysis of the deposited data

Results flagged for a closer look

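For 7 results every array of a phase lay above its own time 0 in one clone and below it in the other. This was so for 5 of 29 genes at the early times, beside 7.03% of all genes, and for 2 of 29 at the late times, beside 7.61%. These differences against time 0 were not tested. Each value is the mean log2 change from the clone's own time 0, over 3 arrays against 1. At the early times, SQLE stood at -0.07 in clone c8 and 0.43 in clone c6 (difference -0.50), HSD17B7 at -0.12 in clone c8 and 0.14 in clone c6 (-0.26), and ACACA at -0.37 in clone c8 and 0.19 in clone c6 (-0.55). In the other direction, TM7SF2 stood at 0.73 in clone c8 and -0.19 in clone c6 (0.92) and ABCG1 at 0.15 in clone c8 and -0.41 in clone c6 (0.55); both genes were dim. At the late times, HMGCS1 stood at 0.11 in clone c8 and -0.22 in clone c6 (0.33), and FASN at 0.16 in clone c8 and -0.25 in clone c6 (0.41).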

How the results depend on the processing

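Of the counts of the 29 genes past the threshold, that early against start lost its 1 call (count 0) with a pseudocount of 64, quantile normalization, median centring, no filter, no intensity trend, no clone term, phase means, either clone alone, and without both arrays of time 12; without both arrays of time 72 there were 2, and with single arrays left out 0 to 2. Late against start, the count of 3 became 1 when probe sets were averaged and 1 without the clone block (pairing), 0 in clone c8 alone, and 0 to 4 with single arrays left out, with 1 without time 0 of clone c8 and 0 without time 0 of clone c6. Late against early, the count of 3 became 0 in clone c8 alone, 9 in clone c6 alone, 5 without both arrays of time 12, and 2 to 5 with single arrays left out. Any difference over time gave 1 instead of 2 without the intensity trend and 0 without the clone block. The level difference gave 4 instead of 11 when probe sets were averaged and 7 to 11 with single arrays left out. The clone difference in response stayed at 0 in all alternatives run. In clone c8 alone late against early the count stayed 0 except for 1 without time 12; in clone c6 alone it was 6 to 12. Leaving out both arrays of a time, and the alternatives within 1 clone, were chosen after seeing the data. The level difference turned round in other probe sets of HMGCS1 (0.35), IDI1 (0.017) and LSS (0.017). SREBF1 late against start lost its call in 17 of 31 alternatives. Of 127 results of single genes that missed the threshold, 30 of 3416 alternatives passed it and 0 reversed a call. In 176 alternatives the sign changed with no call in either setting. Other probe sets were not among these 3416 alternatives. The causes were not tested. With 1 array per clone and time, and a single array at each clone's time 0, small changes of dim genes such as MVD, ABCA1 and ABCG1 could not be detected.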

Other observations

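Both probe sets annotated to CYP51A1 together with LRRD1 were bright, although neither can be given to 1 gene. The first measured 482, 478, 485, 507, 425, 373, 507 and 509 in clone c8 and 561, 426, 597, 506, 609, 427, 372, 345 and 429 in clone c6, in order of time. The second measured 474, 459.7, 412, 479.5, 326, 310.3, 364 and 403 in clone c8 and 583, 814, 674, 708, 539.9, 437, 479.6, 467 and 361 in clone c6. In clone c6 all late values of the second lay below all its early values.

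Of the further SREBP-related genes, PAQR3, a Golgi protein that anchors SCAP and SREBP, was higher late than early (log2 change 0.42, limma adjusted p = 0.015), at -0.03 late against start and -0.45 (adjusted p = 0.11) early against start. LPIN1 was lower late than early (-0.31, adjusted p = 0.049).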
